A study of Mus musculus with 6 samples.

Results

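Described here are 10 mouse genes of Toll-like receptor biology in melanoma tumours, out of 20938 genes measured. They are the receptors Tlr2, Tlr4, Tlr7, Tlr9 and Tlr13, the chaperone Unc93b1, the co-receptor molecules Cd14, Cd180 and Ly86, and the adaptor Myd88. The genes were chosen by name, with their difference between control and YKL-40-labelled tumours already known, so that difference is given for them as a description: no p-value is printed for them, and counts of them past a threshold support nothing. All 10 were found in the deposited table. B16F10 melanoma cells, a pigmented line of C57BL/6 origin, had been implanted subcutaneously in the left hind leg of male C57BL/6 mice aged 6 weeks, in 200 µL of saline, and the tumours were collected on day 19. Both arms, 3 libraries of control tumours and 3 libraries of tumours from cells overexpressing YKL-40, carry the genotype label WT and share the cell line, the host strain and the day. The labels name neither the vector of either arm nor the species of the overexpressed sequence, and they do not say whether the libraries of an arm came from separate animals. Any p-value therefore measures only the spread between these libraries.

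Toll-like receptors are membrane proteins that recognise microbial and, in some settings, self molecules, chiefly in macrophages, dendritic cells and B cells. TLR2 and TLR4 work at the cell surface, where TLR4 binds bacterial lipopolysaccharide together with MD-2 and receives it from CD14. CD180 resembles TLR4 outside the cell, pairs with MD-1, the product of Ly86, and has no TIR signalling domain. Receptors for nucleic acids such as TLR7, TLR9 and TLR13 work in endosomes, to which UNC93B1 escorts them from the endoplasmic reticulum. The Toll-like receptors among the 10 signal through MyD88, TLR4 through TRIF as well, and TLR3 through TRIF alone.

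The FPKM values (fragments scaled to transcript length and to library depth) summed to between 468605 and 490955 per library. Total read numbers are unknown, and low values put the depth of the libraries at 0.953 to 1.33 times that of control 1. Melanocyte markers were high in every library, with summed values of 8662 to 10130 FPKM in the controls, against 8664 to 10800 in the YKL-40-labelled libraries, and Pmel was the most abundant. The mouse gene of YKL-40, Chil1 in the table, was listed at 0.0644, 0 and 0.0242 FPKM in the controls and at 0 in all 3 YKL-40-labelled libraries, so the direction of every difference rests on the labels alone. Whole tumours were sequenced, and a larger number of cells of a type cannot be told apart from more RNA per cell.

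Unc93b1 and Ly86 stood higher in the YKL-40-labelled libraries by the widest margin relative to their spread, Tlr9 was low in the controls and higher in each YKL-40-labelled library, and Tlr4 was lower. In a fit of limma on log2(FPKM + 1), 9 of the 10 genes reached the filter of a mean of 1 FPKM and Tlr2 did not. Tlr9 reached it only through its YKL-40-labelled values. Changes are given as the YKL-40-labelled mean less the control mean on that log2 scale, with the standard error (SE) of the fit, and they understate differences of genes with low values. Of the 9 genes, 8 had a change above 0 and 1 below, with a median of 0.50, where the median over all 11241 tested genes was -0.04. The filter had to place Tlr9 higher. In the 8 genes with both group means at the filter, 7 had a change above 0, and the median was 0.40. At an adjusted p under 0.05, 2 of the 9 passed, Unc93b1 and Ly86, both higher, beside 0.436% of all tested genes (0.365% higher and 0.0712% lower). Nothing is read from that count, since this difference chose the genes, and it depends on single libraries. It was 0 in each of 4 fits that left out 1 library: control 1 (0.0178% of all genes called), control 2 (0.0%), and numbers 1 (0.0357%) and 3 (0.312%) of the YKL-40-labelled arm. It was 2 without control 3 (1.86%) or number 2 of that arm (2.12%). The groups did not overlap for 6 of the 10 genes, 5 of them higher and 1 lower, where 22.0% of all genes with a value above 0 were apart in either direction (10.7% higher and 11.3% lower). Among the 9 tested, 4 were apart and higher, Tlr9 included, and 1 apart and lower, where 24.4% of all tested genes were apart (10.3% higher and 14.2% lower).

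**Figure D1:**
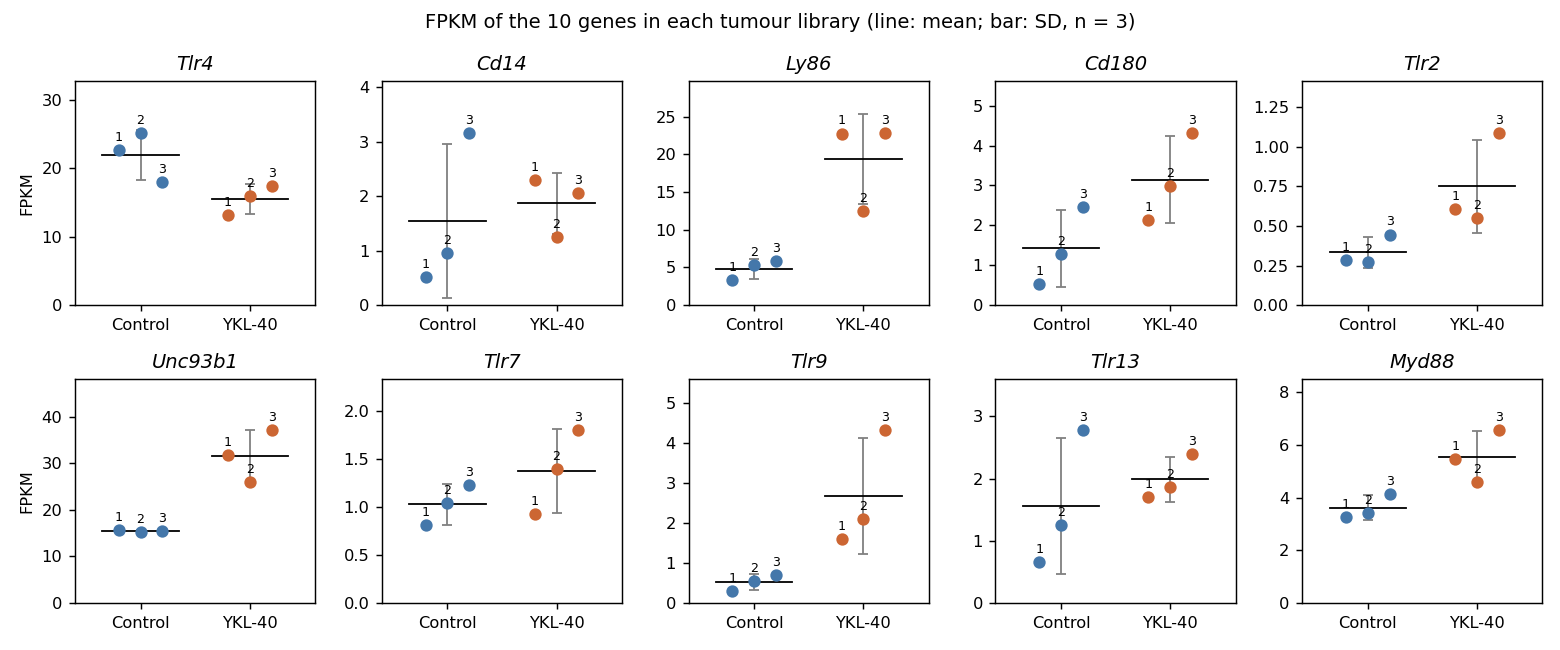
FPKM (vertical axes, each from 0) of the 10 genes in the 3 control libraries (blue) and the 3 YKL-40-labelled libraries (orange), with library numbers; the line is the mean and the bar the SD (n = 3). Unc93b1 stays between 15.3 and 15.7 FPKM in the controls and is at 26.1 or more in the YKL-40-labelled libraries, while Cd14 and Tlr13 reach their highest value in control 3.

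Promoter sequence could be read for 6 of the 10 genes, from the RefSeq table of assembly GRCm38.p6: Tlr2, Tlr9, Tlr13, Ly86, Cd180 and Myd88. It was not read for Unc93b1, Tlr4, Tlr7 and Cd14. The 250 bases before the start were searched on both strands for 6 motifs of factors known for myeloid and inflammatory transcription. These were GAGGAAG (the core bound by PU.1), GGAAGT (an ETS core), GAAA followed by any 2 bases and GAAA (an interferon response element), GGAA followed by any 2 bases and GAAA (an ETS-IRF element), GGG followed by any 5 bases and CC (NF-kB sites) and TGANTCA (AP-1). Matches of different motifs did not overlap in these windows. The sequences of Ly86 and Tlr9, the genes with the largest changes, are shown beside those of Tlr13, whose groups overlapped, and Myd88, the shared adaptor. Capitals mark every match.
Ly86 (chr13:37345095-37345344, plus strand): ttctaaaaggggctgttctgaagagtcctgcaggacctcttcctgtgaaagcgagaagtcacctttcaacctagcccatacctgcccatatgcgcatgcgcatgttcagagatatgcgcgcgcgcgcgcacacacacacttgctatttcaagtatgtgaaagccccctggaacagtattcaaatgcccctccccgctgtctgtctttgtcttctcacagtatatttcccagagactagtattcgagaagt
Tlr9 (chr9:106222348-106222597, plus strand): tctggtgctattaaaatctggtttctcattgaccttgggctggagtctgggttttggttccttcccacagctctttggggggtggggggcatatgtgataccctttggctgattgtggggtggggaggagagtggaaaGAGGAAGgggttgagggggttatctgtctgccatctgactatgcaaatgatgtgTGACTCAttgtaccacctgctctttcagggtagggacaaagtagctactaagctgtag
Tlr13 (chrX:106143025-106143274, plus strand): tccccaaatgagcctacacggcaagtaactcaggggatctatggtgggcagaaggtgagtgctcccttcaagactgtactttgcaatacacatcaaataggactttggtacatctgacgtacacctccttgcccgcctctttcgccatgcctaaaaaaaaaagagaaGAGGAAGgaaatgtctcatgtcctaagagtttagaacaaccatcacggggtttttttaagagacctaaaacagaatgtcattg
Myd88 (chr9:119340019-119340268, minus strand): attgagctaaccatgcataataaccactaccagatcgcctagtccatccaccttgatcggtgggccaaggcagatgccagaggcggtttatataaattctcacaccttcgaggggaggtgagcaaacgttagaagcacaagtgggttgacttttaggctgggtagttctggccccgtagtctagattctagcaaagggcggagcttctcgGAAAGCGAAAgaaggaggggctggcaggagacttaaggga

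The PU.1 core was found in the windows of Tlr9, 112 to 106 bases before the start, and Tlr13, 83 to 77 bases before it, and 10.6% of the 32851 promoters in the table hold it. Tlr9 also holds an AP-1 match 58 to 52 bases before the start, a motif that 6.75% of promoters hold. The window of Myd88 has an interferon response element 40 to 31 bases before the start (2.98% of promoters). That of Ly86 holds a match to 0 of the 6 motifs, which says only that these letters are not in this window. In the window of Tlr2, the NF-kB motif matches in 3 overlapping ways within 173 to 163 bases before the start, and an ETS core lies 30 to 25 bases before it. An ETS core also lies in the window of Cd180, on the minus strand, 53 to 48 bases before the first of its start sites. The NF-kB motif is in 45.8% of promoters and the ETS core in 19.7%. The ETS-IRF element, in 2.3% of promoters, was in none of these 6 genes' windows. The genes with a PU.1 core include 1 whose groups were apart, Tlr9, and 1 whose groups overlapped, Tlr13.

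Among the surface receptors, Tlr4 (chromosome 4, 66827551 to 66846581, GRCm38.p6, the assembly of mm10) was the most abundant of the 10 genes in the controls. It had 22.6, 25.2 and 18.0 FPKM in controls 1 to 3 and 13.2, 15.9 and 17.4 FPKM in YKL-40-labelled libraries 1 to 3. The groups did not overlap, though control 3 and YKL-40-labelled library 3 were close. The means were 21.9 ± 3.62 and 15.5 ± 2.14 FPKM (SD, n = 3), 1.42-fold higher in the controls, with a change of -0.47 (SE 0.15). In the 6 fits that left out 1 library the change ran from -0.60 to -0.37. Skeletal muscle markers were also lower in the YKL-40-labelled libraries. All 8 had a change below 0, though 3 of them reached the filter only through their control values, which had to place them lower. In limma 0 passed over all genes and 7 had an unadjusted p below 0.05, where 9.24% of all tested genes were lower at that level. Of the 5 with both group means at the filter, 5 were lower at that level. Their summed level, over all 8, was 37.5 to 157 FPKM in the controls, against 4.42 to 25.0 in the YKL-40-labelled libraries. Their part in the Tlr4 difference was not tested.

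Cd14, which hands lipopolysaccharide to TLR4, did not follow Tlr4. Its values (chromosome 18, 36725064 to 36726815) were 0.522, 0.954 and 3.17 FPKM in the controls, against 2.30, 1.24 and 2.07 FPKM in the YKL-40-labelled libraries. Control 3 lay above all other libraries and the groups overlapped. The change was 0.29 (SE 0.36), and it was -0.01 when control 1 was left out and 0.71 when control 3 was. Tlr4 exceeded Cd14 by 43.3, 26.4 and 5.69 times in the controls and by 5.74, 12.8 and 8.43 times in the YKL-40-labelled libraries, so the balance of the pair differed more among the controls than between the groups. Ly96, the gene of MD-2, which was not among the 10, had 10.7, 6.54 and 8.77 FPKM in the controls, against 12.9, 5.07 and 10.5 FPKM in the YKL-40-labelled libraries (change 0.06, adjusted p = 0.942).

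Tlr2, a receptor of bacterial lipoproteins (chromosome 3, 83836272 to 83841824), was the least abundant of the 10. It had 0.282, 0.271 and 0.446 FPKM in the controls, against 0.607, 0.552 and 1.09 FPKM in the YKL-40-labelled libraries. Each YKL-40-labelled value lay above each control, with YKL-40-labelled library 3 highest. The ratio of the means was 2.25, and in the fit without a filter on low values the change was 0.38 (SE 0.13). Its usual partners in the cell are TLR1 and TLR6. Tlr1 had 0.908, 0.844 and 1.15 FPKM in the controls, against 1.98, 1.20 and 2.08 in the YKL-40-labelled libraries (change 0.47, adjusted p = 0.219). Tlr6 stayed between 0.0498 and 0.278 FPKM in all libraries, and its groups overlapped. Tlr1 and Tlr6 are close relatives next to each other on chromosome 5, so how reads were shared between them is uncertain.

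Ly86 had the largest change of the 10 with a pseudocount of 1, and Tlr9 with 0.1 (2.09 against 1.98 for Ly86) or 0.01 (2.28 against 2.00). Its values (chromosome 13, 37345345 to 37419036) were 3.29, 5.35 and 5.80 FPKM in the controls, against 22.8, 12.5 and 22.9 FPKM in the YKL-40-labelled libraries. The lowest YKL-40-labelled library, number 2, was above the highest control. The means were 4.81 ± 1.34 and 19.4 ± 5.93 FPKM, 4.03-fold apart, with a change of 1.79 (SE 0.27) that ran from 1.59 to 2.06 when 1 library was left out. Its partner Cd180 (chromosome 13, 102693547 to 102706631) had 0.529, 1.28 and 2.46 FPKM in the controls, against 2.14, 2.98 and 4.32 FPKM in the YKL-40-labelled libraries. Control 3 lay above YKL-40-labelled library 1, so these groups overlapped. The change of Cd180 was 0.82 (SE 0.32), 0.53 without control 1 and 1.12 without control 3. With a pseudocount of 0.01 it was 1.34. Ly86 exceeded Cd180 by 6.21, 4.17 and 2.36 times in the controls and by 10.6, 4.21 and 5.29 times in the YKL-40-labelled libraries, and this ratio overlapped between the groups. Of the exon bases of Cd180, 4.04% are shared with Mast4 on the opposite strand, and kits of this kind do not keep the strand.

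Unc93b1 was the steadiest of the 10 among the controls. Its values (chromosome 19, 3935158 to 3949340) were 15.7, 15.3 and 15.6 FPKM there and 31.7, 26.1 and 37.1 FPKM in the YKL-40-labelled libraries. The highest control was 1.03 times the lowest, whereas this ratio was 6.06 for Cd14, 4.64 for Cd180 and 4.22 for Tlr13. The means were 15.5 ± 0.218 and 31.6 ± 5.51 FPKM, 2.04-fold apart, with a change of 0.97 (SE 0.13) that ran from 0.85 to 1.10 without 1 library. It passed the adjusted threshold in 10 of the 15 alternative fits and Ly86 in 6 of the 15, again as a description. Unc93b1 was second to Tlr4 in the controls and first of the 10 in the YKL-40-labelled libraries, and it was apart from its neighbour in the order in both groups.

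Of the nucleic acid receptors, Tlr9, which detects unmethylated CpG DNA (chromosome 9, 106222598 to 106226876), differed most. It had 0.310, 0.552 and 0.694 FPKM in the controls, against 1.59, 2.10 and 4.32 FPKM in the YKL-40-labelled libraries. Every YKL-40-labelled value was above every control, and YKL-40-labelled library 3 was well above the others. The ratio of the means was 5.15 and the change 1.21 (SE 0.27). Because the control values are below 1 FPKM, the pseudocount matters, and with 0.01 in place of 1 the change was 2.28. Without YKL-40-labelled library 3 it was 0.91.

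Tlr7, a receptor of single-stranded RNA (X chromosome, 167303380 to 167330574), differed little. It had 0.807, 1.04 and 1.23 FPKM in the controls, against 0.921, 1.39 and 1.80 FPKM in the YKL-40-labelled libraries. The groups overlapped, and the change was 0.21 (SE 0.18), falling to 0.09 without YKL-40-labelled library 3. Tlr13, which detects bacterial ribosomal RNA (X chromosome, 106143275 to 106160493), had 0.657, 1.25 and 2.77 FPKM in the controls, against 1.70, 1.86 and 2.39 FPKM in the YKL-40-labelled libraries. Control 3 was the highest of all 6 libraries. The change was 0.30 (SE 0.29), from 0.03 without control 1 to 0.62 without control 3. The proportion of Tlr9 to Tlr7 was 0.383, 0.531 and 0.564 in the controls, against 1.73, 1.51 and 2.41 in the YKL-40-labelled libraries, so that Tlr7 was the higher of the pair in each control and Tlr9 in each YKL-40-labelled library.

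Endosomal receptors outside the 10 were added by rule. Tlr3, the receptor of double-stranded RNA, was the most abundant, with 11.9, 10.6 and 9.37 FPKM in the controls, against 11.6, 11.5 and 19.3 FPKM in the YKL-40-labelled libraries (change 0.35, adjusted p = 0.410). It made up 55.6% to 79.7% of the summed FPKM of the 7 endosomal receptors. Tlr8 had 1.20, 1.46 and 2.73 FPKM in the controls, against 1.88, 3.28 and 5.00 in the YKL-40-labelled libraries (change 0.62, adjusted p = 0.330). Tlr11 and Tlr12, which recognise profilin of protozoa, lay below the filter. Tlr11 was listed at 0, 0 and 0.00934 FPKM in the controls and at 0.478, 0.194 and 0.562 in the YKL-40-labelled libraries, and Tlr12 at 0.0524, 0.127 and 0.0517 against 0.309, 0.234 and 0.353 FPKM. Both had groups that did not overlap. Tlr5, a flagellin receptor of the cell surface, went from 0, 0.131 and 0.136 FPKM to 0.186, 0.194 and 0.293 FPKM, also without overlap.

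The 7 endosomal receptors together had 14.9, 15.1 and 16.8 FPKM in the controls, close to the level of their chaperone, and 18.4, 20.6 and 33.8 FPKM in the YKL-40-labelled libraries. The ratio of Unc93b1 to this sum was 1.05, 1.01 and 0.923 in the controls, against 1.72, 1.27 and 1.10 in the YKL-40-labelled libraries. All 3 YKL-40-labelled values lay above the highest control, by the least in library 3, where Tlr3, Tlr8 and Tlr9 were all highest.

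**Figure D2:**
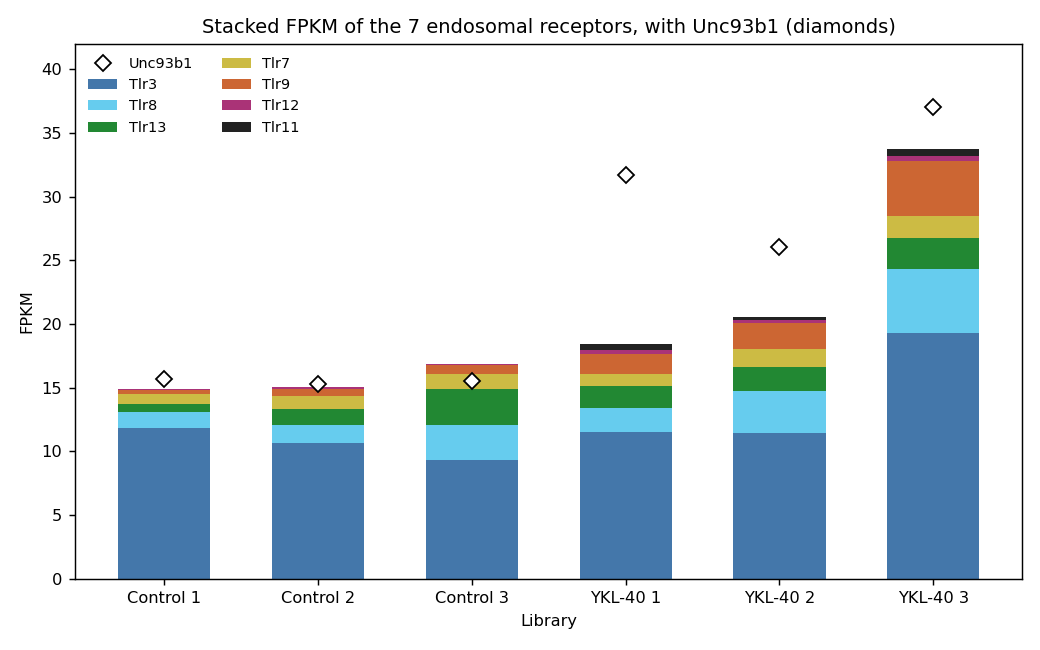
Stacked bars give the FPKM (vertical axis) of the 7 endosomal receptors in each library (horizontal axis), and open diamonds the FPKM of Unc93b1. In controls 1 and 2 the diamonds lie just above the bars and in control 3 just below the top, and in YKL-40-labelled libraries 1 and 2 they lie well above them; Tlr3 is the largest part of each bar.

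Myd88, the adaptor (chromosome 9, 119335934 to 119340018), had 3.27, 3.42 and 4.15 FPKM in the controls, against 5.48, 4.60 and 6.55 FPKM in the YKL-40-labelled libraries. The groups did not overlap, with YKL-40-labelled library 2 the nearest to the controls. The means were 3.62 ± 0.471 and 5.54 ± 0.979 FPKM, and the change was 0.50 (SE 0.15), from 0.39 to 0.60 without 1 library. Of its exon bases, 11.3% are shared with Acaa1a on the opposite strand, whose reads could not be told apart there.

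By level, the controls ran from Tlr4 and Unc93b1 through Ly86 and Myd88 to Tlr13, Cd14, Cd180 and Tlr7, and then to Tlr9 and Tlr2. Within Ly86 and Myd88, within the run from Tlr13 to Tlr7, and between Tlr9 and Tlr2, neighbours overlapped across the 3 controls. In the YKL-40-labelled libraries the order was Unc93b1, Ly86, Tlr4, Myd88, Cd180, Tlr9, Tlr13, Cd14, Tlr7 and Tlr2. There Ly86 and Tlr4 overlapped, and so did each pair of neighbours from Cd180 down. Tlr9 moved from position 9 to 6 of 10 and Tlr4 from 1 to 3.

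Macrophage markers were mostly higher in the YKL-40-labelled libraries, unlike Tlr4. Of 14 markers, all were tested (Aif1 only through its YKL-40-labelled values), 13 had a change above 0, 0 passed over all genes in limma, and 9 were below an unadjusted p of 0.05 (18.0% of all tested genes did so). In the 13 markers with both group means at the filter, 12 had a change above 0 and 8 were higher at that level, with a median of 1.04. The groups of 7 markers, Aif1 included, were apart, all higher, where 10.3% of all tested genes were apart and higher. The change of Cx3cr1 was -0.25 and that of Mertk 0.001. The median change of the 14 was 1.09, and their summed level was 102 to 313 FPKM in the controls, against 343 to 500 in the YKL-40-labelled libraries, with 0 of the 14 at 0 in all libraries. Lyz2, the most abundant, had 31.0, 60.9 and 127 FPKM in the controls, against 113, 128 and 127 in the YKL-40-labelled libraries. Control 1 was lowest and control 3 highest of the controls for the mean of this list, as for Cd14, Cd180, Ly86, Myd88, Tlr7, Tlr9 and Tlr13, whereas Unc93b1 was flat there and Tlr2 and Tlr4 had another order. Markers of all leukocytes behaved alike, with 7 of 7 above 0, 0 past the threshold in limma, 7 with an unadjusted p below 0.05 and summed levels of 17.9 to 64.0 FPKM against 89.1 to 159 FPKM.

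Of other cells, B cells and plasmacytoid dendritic cells were sparse by their markers. The 8 B cell markers summed to 0.769 to 1.79 FPKM in the controls, against 1.08 to 1.62 in the YKL-40-labelled libraries. The 5 plasmacytoid dendritic cell markers summed to 0.261 to 0.546 and 0.676 to 1.70 FPKM. None of these 13 reached the filter. The 8 conventional dendritic cell markers summed to 3.13 to 6.25 and 9.75 to 22.0 FPKM, and 7 of them had groups that did not overlap, all higher, where 10.7% of all genes with a value above 0 were apart and higher. Monocyte markers, 3 in all, summed to 0.952 to 8.17 and 11.2 to 31.6 FPKM. Neutrophil markers summed to 1.11 to 16.9 and 3.29 to 10.0 FPKM, with Ly6g at 0 in every library, and S100a9, the most abundant of them, was highest in control 3 at 11.6 FPKM. Fibroblast markers summed to 21.0 to 170 and 152 to 261 FPKM, and endothelial markers to 39.8 to 87.4 and 48.7 to 76.7 FPKM. T cell markers summed to 0.683 to 1.19 and 4.14 to 14.6 FPKM, with all 7 higher and without overlap, beside the same 10.7%. Of the 8 dendritic and 7 T cell markers, 3 and 1 reached the filter, Ccr7 and Cd8a of these only through their YKL-40-labelled values. NK cell markers summed to 0.172 to 0.469 and 2.90 to 10.4 FPKM, and Prf1, the gene of perforin and the most abundant of them, was tested only because its YKL-40-labelled values are high, so its call (change 2.16, adjusted p = 0.0444 in limma, 0.00948 to 0.158 when 1 library was left out) is not read as a rise. The call was lost without control 1, control 2, or number 1 or 3 of the YKL-40-labelled arm. Keratinocyte markers stayed at 0.119 FPKM or less in sum. The part of any of these cells in the differences of the 10 genes was not tested.

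**Figure D3:**
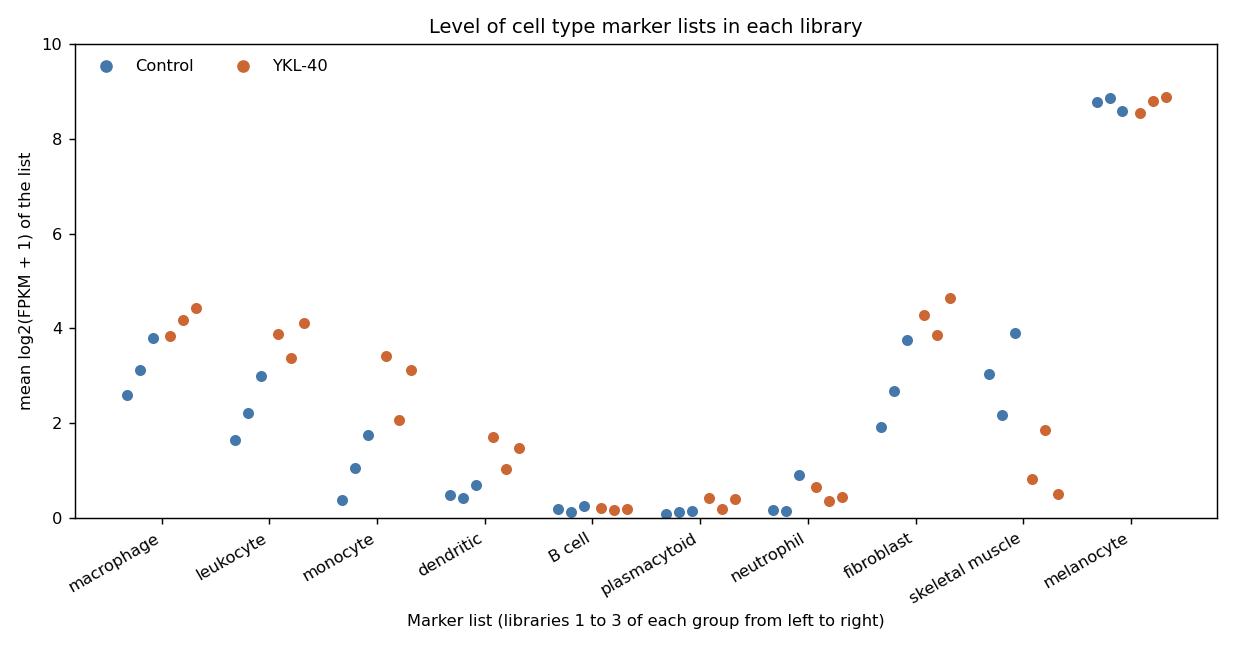
Mean log2(FPKM + 1) (vertical axis) of 10 cell type marker lists in each library, with libraries 1 to 3 of the controls (blue) left of those of the YKL-40-labelled group (orange). Macrophage, leukocyte and fibroblast lists differ widely among the controls, B cell and plasmacytoid lists are near 0 throughout, and the melanocyte list is level.

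Each gene was then set against the mean log2(FPKM + 1) of the 14 macrophage markers in the same library. For Unc93b1 this difference was 1.46, 0.89 and 0.24 in the controls, against 1.19, 0.59 and 0.82 in the YKL-40-labelled libraries, with means of 0.87 in both groups. For Tlr4 it was 1.96, 1.58 and 0.44 in the controls, against -0.02, -0.10 and -0.23 in the YKL-40-labelled libraries. Tlr4 was thus lower relative to the macrophage markers throughout the YKL-40-labelled arm, below its lowest control, and the same held for Tlr7 and Tlr13. Ly86 was higher relative to them, at -0.50, -0.46 and -1.04 against 0.73, -0.41 and 0.15, with YKL-40-labelled library 2 close to the controls. For Cd180 the controls lay at -1.99, -1.94 and -2.02, an SD of 0.04, although its FPKM differed 4.64-fold among them. For Tlr13 the controls lay at -1.87, -1.96 and -1.89. This closeness depends on the pseudocount, since with 0.01 in place of 1 the SD of the controls was 0.40 for Cd180 and 0.32 for Tlr13. For Tlr9 the means were -2.58 ± 0.42 and -2.34 ± 0.28, with overlap. With a pseudocount of 0.01, added after the values were seen, the means of Tlr9 were -3.89 and -2.71 and its groups did not overlap, while Tlr4, Tlr7, Tlr13 and Ly86 kept their direction and stayed apart. Set against the 7 leukocyte markers instead, with a pseudocount of 1, Tlr4 (-1.98), Tlr7 (-1.30) and Tlr13 (-1.21) were again lower without overlap, as were Tlr2, Cd180, Cd14 and Myd88. The mean of the leukocyte markers was 1.64, 2.21 and 2.99 in the controls, against 3.88, 3.38 and 4.11 in the YKL-40-labelled libraries. An unchanged gene would be lower without overlap here too, so nothing is read from how many were. Against those markers the groups of Ly86 overlapped (0.28), and so did those of Unc93b1 (-0.54) and Tlr9 (-0.30). With 0.01 in place of 1, the groups of Tlr2 and Cd180 overlapped as well against the leukocyte markers. Those of Tlr4, Tlr7, Tlr13, Cd14 and Myd88 stayed lower without overlap.

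**Figure D4:**
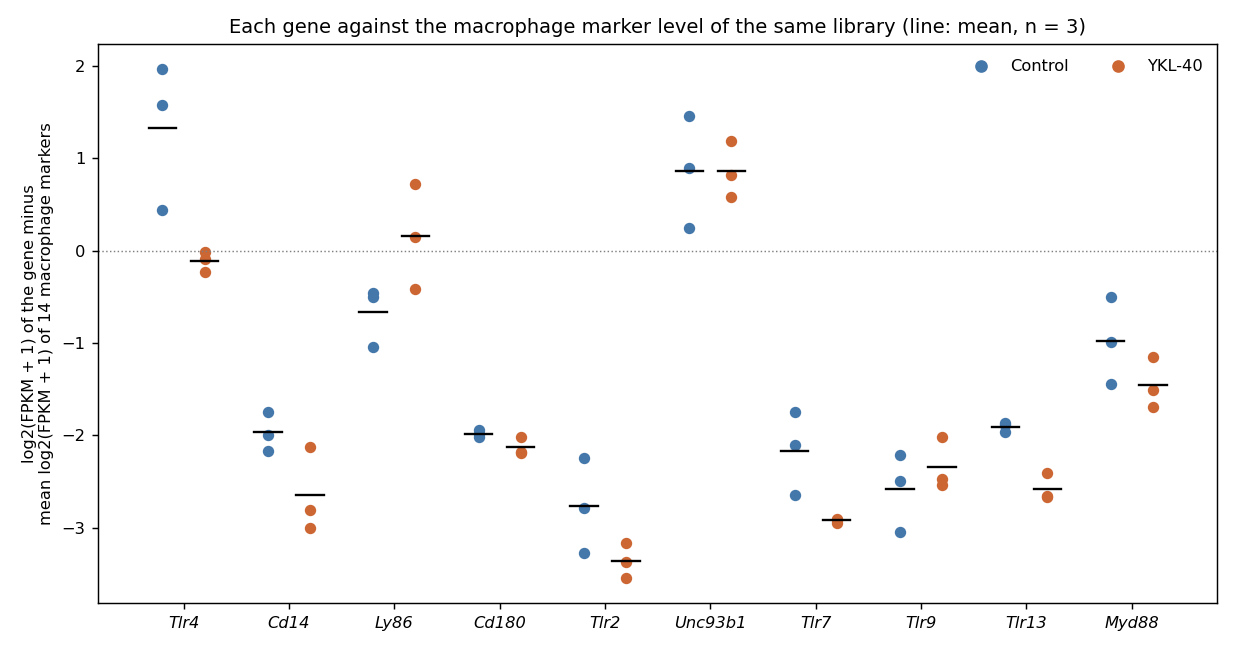
Difference between log2(FPKM + 1) of each gene and the mean of 14 macrophage markers in the same library (vertical axis), for controls (blue) and YKL-40-labelled libraries (orange); lines are means (n = 3). Tlr4, Tlr7 and Tlr13 lie lower and Ly86 higher in each YKL-40-labelled library, and Unc93b1 has the same mean in both groups. The marker mean itself is higher in each YKL-40-labelled library than in each control.

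The rest of the pathway was described by 6 lists with 85 genes, of which 84 were found and 66 reached the filter. In limma, 0 of the 66 passed over all genes, beside 0.436% of all tested genes. Below an unadjusted p of 0.05 there were 27, 23 of them higher and 4 lower, where 8.71% of all tested genes were higher and 9.24% lower at that level. The median change was 0.15. Of the 66, 8 reached the filter only through their YKL-40-labelled values, which had to place them higher, and all 8 are among the 23. In the 58 genes with both group means at the filter, 15 were higher and 4 lower at that level, with a median of 0.06. The count of 0 became 6 when control 3 was left out and 9 when YKL-40-labelled library 2 was, all higher, and 22 with array quality weights, with 1.86%, 2.12% and 9.88% of all genes called in those fits.

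Genes induced by Toll-like receptor ligands in myeloid cells had the largest changes of the pathway. Of 20 listed genes, 12 were tested, and 4 of them (Ptgs2, Acod1, Saa3 and Cd40) reached the filter only through their YKL-40-labelled values, so their direction was fixed by it. The other 8 had a change above 0, with a median of 1.08. In limma, 6 of these 8 were below an unadjusted p of 0.05, where 8.71% of all tested genes were higher at that level. The median of the 12 was 1.17, and 0 of the 12 passed over all genes in limma. Below an unadjusted p of 0.05 were 10 of the 12, among them the 4 whose direction was fixed. Nos2, inducible nitric oxide synthase, had 0.453, 0.926 and 2.67 FPKM in the controls, against 7.46, 4.32 and 11.2 in the YKL-40-labelled libraries (change 1.91, adjusted p = 0.0846). Cxcl10, a chemokine, had 10.2, 12.3 and 8.34 FPKM against 22.2, 15.9 and 29.2 (1.03, adjusted p = 0.0881). Acod1, which makes itaconate, had 0, 0.113 and 0.620 against 2.38, 0.782 and 2.73 FPKM (1.21, adjusted p = 0.126). Interferons and other cytokines induce several of these genes as well.

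Proteases and nucleases of the endosome, which cut the receptors or trim their ligands, had a median change of 0.32 over 10 tested genes. Of these, 0 passed over all genes in limma and 4 were below an unadjusted p of 0.05, all higher. Pld4, an endolysosomal nuclease, had 1.51, 4.35 and 5.43 FPKM in the controls, against 13.1, 11.4 and 20.9 in the YKL-40-labelled libraries (change 1.82, adjusted p = 0.0845). Ctss, cathepsin S, had 15.1, 24.9 and 39.6 FPKM against 73.9, 55.8 and 107 (1.59, adjusted p = 0.0918). Ctsb, cathepsin B, had a change of 0.64 (adjusted p = 0.130). For Pld4 and Ctss the groups did not overlap.

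Adaptors, kinases and transcription factors below the receptors were split, 10 above 0 and 10 below among 20 tested, with a median of 0.00. In limma 0 passed over all genes and 8 were below an unadjusted p of 0.05, 4 in each direction. Of the 4 higher genes, 1 reached the filter only through its YKL-40-labelled values, which fixed its direction. Among the 19 genes with both group means at the filter, 3 were higher and 4 lower at that level. The transcription factors Irf7 (1.53, adjusted p = 0.0965) and Irf5 (1.70, adjusted p = 0.108) and the kinase gene Irak2 (0.73, adjusted p = 0.121) were on the higher side. Irf7 had 1.31, 5.09 and 3.78 FPKM in the controls, against 11.4, 8.15 and 13.3 in the YKL-40-labelled libraries. Irf5 had 0.717, 2.04 and 3.19 against 10.7, 4.29 and 11.0 FPKM. Among the inhibitors, 0 of 8 passed over all genes in limma and 2 were below an unadjusted p of 0.05, with a median of 0.04. Socs1, a suppressor of cytokine signalling and 1 of these 2, reached the filter only through its YKL-40-labelled values. It had 0.316, 0.415 and 0.588 FPKM against 3.46, 1.44 and 3.77 (1.38, adjusted p = 0.0780). Inpp5d had a change of 0.82 (adjusted p = 0.186), and Rnf216, a ubiquitin ligase gene, of -0.24 (adjusted p = 0.290).

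Accessory and folding proteins, used by receptors in many cell types, had a median change of 0.02 over 13 tested genes; 0 passed over all genes in limma and 2 were below an unadjusted p of 0.05. Grn, the gene of progranulin, had 94.9, 81.6 and 83.6 FPKM in the controls, against 114.9, 121.9 and 135.0 in the YKL-40-labelled libraries (0.51, adjusted p = 0.0845). Lbp, the lipopolysaccharide-binding protein, which reached the filter only through its YKL-40-labelled values as did Tlr1 and Acod1, had a change of 1.24 (adjusted p = 0.163), and Cd36 of -0.21 (adjusted p = 0.697). Hsp90b1, the endoplasmic reticulum chaperone that folds most Toll-like receptors and the most abundant of this list, was not among the genes of lowest p and is named after its values were seen, with a change of 0.02.

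**Figure D5:**
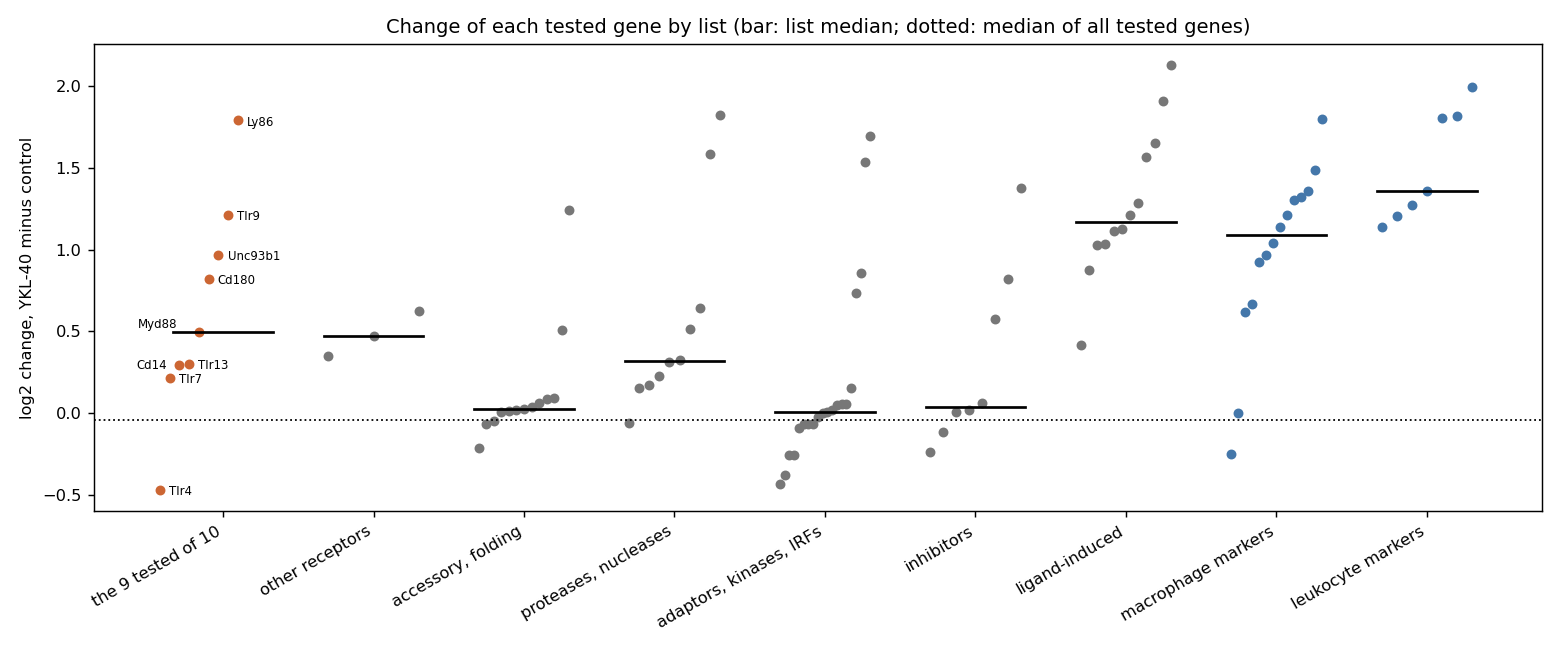
Change of each tested gene on the log2(FPKM + 1) scale, with values above 0 higher in the YKL-40-labelled libraries (vertical axis), for the 9 tested genes of the 10 (orange), the 6 pathway lists (grey) and 2 marker lists (blue); bars are list medians and the dotted line is the median of all tested genes at -0.04. The ligand-induced genes and the macrophage markers have medians of 1.17 and 1.09, the accessory genes and the adaptors of 0.02 and 0.00. For the 8 ligand-induced genes with both group means at the filter the median is 1.08, and for the 13 such macrophage markers it is 1.04.

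Genes with the pattern most like each tested gene were found by the root mean square difference of log2(FPKM + 1), centred on each gene's mean, over the 6 libraries and all tested genes. Nearest to Unc93b1 were Arhgap4 (0.0809), Spn (0.10), Samhd1 (0.103), Lgals3bp (0.105) and Sema4a (0.107), where the values of Unc93b1 themselves lay 0.505 about their mean. Of these, Arhgap4 and Spn were below 1 FPKM in each control and reached the filter only through their YKL-40-labelled values. Spn had 0.362, 0.425 and 0.252 FPKM in the controls, against 1.96, 1.11 and 2.41 in the YKL-40-labelled libraries. The pseudocount of 1 shrinks such differences, so this likeness is not one of fold. Samhd1 had 36.0, 38.3 and 36.4 FPKM in the controls, against 63.5, 53.1 and 85.1 in the YKL-40-labelled libraries. Nearest to Ly86 were C1s1 (0.107) and Rac2 (0.112), to Tlr9 Mndal (0.0870) and Tmem229b (0.120), to Cd180 Ctsc (0.0955) and Anpep (0.120), and to Myd88 Cd47 (0.0381) and Elmo1 (0.0584). Tlr4 had Pkia (0.0597) and Ccdc159 (0.0678) nearest, with changes of -0.45 and -0.43, a direction that the choice by pattern fixed. Tlr7 had Prelp (0.0445) and Osbpl10 (0.0495), and Tlr13 had Pmepa1 (0.0650) and Msrb3 (0.0676). None of the 10 genes was among the nearest of another.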

How the data were processed

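The deposited table holds 1 FPKM value per gene and library, made by the authors. Per the submitters' processing notes, bcl2fastq 2.0, HISAT2, StringTie, DESeq2 and limma and the build mm10 were used, with no role given; the annotation was not given in those sources. Per the labels' protocols, 2 µg of total RNA went into each library (TruSeq RNA kit, version 2), with no strand setting named. Values were tested as log2(FPKM + 1) with limma 3.58.1 (R 4.3.3, variance trend) on the 11241 genes whose 6-library mean reached 1 FPKM, adjusted by the Benjamini-Hochberg method, two-sided, threshold 0.05. The members and lists were chosen with earlier results of these data known. Named are the members, the other Toll-like receptors, the 3 tested genes of lowest p in each pathway list, markers of the cell type lists, and the nearest genes by pattern. The genes nearest to Cd14 and the values of 1 B cell marker are not reported here. On simulated data of 11241 genes with 200 changed, 5 runs recovered 89.8% of changes of 1 and 99.4% of changes of 2 on the log2 scale, with 5.94% false calls. The simulated noise was independent between genes, with a spread per gene that was equal in all libraries. Differences that many genes of a library share were not simulated, so these shares need not hold for the tumours. Alternatives were pseudocounts, filters, scalings, no trend, array weights, a replicate block and leaving out each library.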

Additional observations from a re-analysis of the deposited data

How the results depend on the processing

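The median change of the 9 tested members stayed within the spread between libraries in 14 of 15 alternatives and was 0.97 with a mean of at least 5 FPKM, which leaves 3 members. The median of the other pathway genes in 15 of 15 and that of the members against the macrophage level in 10 of 10 stayed within that spread. The number of members past the threshold, 2, was 1 with pseudocounts of 0.1 and 0.01 (0.391% and 0.302% of all genes), with median of ratios scaling (0.329%) and without a variance trend (0.391%), 0 with no filter (0.00609%), and 4 with array quality weights (9.88%; Unc93b1, Tlr9, Ly86 and Myd88). Leaving out 1 library gave 0 to 2. For all genes, the count of 49 was 1 with no filter (2694 at an unadjusted p under 0.05), 1111 with array quality weights and 120 with the replicate block, and it ran from 0 to 238 without 1 library (0 without control 2, with 1345 genes at an unadjusted p under 0.05 in limma). For the other pathway genes, the count of 0 was 22 with array quality weights and ran from 0 to 9 without 1 library. With the replicate number as a block, 120 of all genes, 2 members and 3 other pathway genes (Ctss, Pld4 and Nos2) passed. The numbers are not stated to pair the libraries, and same-numbered libraries deviated with correlations of -0.0832, -0.185 and 0.0017, so the block rests on the number alone. The change of Cd36, -0.21, ran from -0.41 to 0.044 without 1 library, and it turned without YKL-40-labelled library 1. The cause of these shifts was not tested, except that a filter or a left-out library changes what enters the fit. Total read numbers are unknown, and members near 1 FPKM or below, Tlr2, Tlr7 and Tlr9, have the least certain values.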
